A study of Homo sapiens with 6 samples.

Results

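Telomerase is described here through 10 genes, which were taken from the count table by an exact match of the gene symbol. The set holds the reverse transcriptase gene TERT, the H/ACA core protein genes DKC1, NOP10, NHP2 and GAR1, the assembly factor genes NAF1 and WRAP53, the RNA-processing gene PARN, the helicase gene RTEL1 and the endonuclease gene SMG6. All 10 symbols were found once each among the 60668 rows of the table, and all 10 passed the filter on low counts and were tested. RNA sequencing compared 3 libraries labelled as PANC-1 cells carrying a short hairpin RNA (shRNA) against STN1 with 3 libraries labelled as PANC-1 cells carrying a control shRNA. PANC-1 is an established human line from a carcinoma of the pancreatic duct, and the CST complex, to which STN1 belongs, ends extension by telomerase and helps to fill in the complementary telomeric strand. Both groups were grown in the same medium and serum. The sources used here do not say whether a group was 1 clone or a pool, nor which vector carried the hairpins. The titles call the replicates of each group biological, without saying whether they came from separate cultures, so a p-value speaks of differences among these 6 libraries and their scatter may be partly technical.

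Telomerase adds telomeric repeats to chromosome ends by copying a short template within its own RNA, TERC. The other end of TERC folds like a box H/ACA small nucleolar RNA and is held by dyskerin (DKC1) with NOP10, NHP2 and GAR1, the same proteins that guide pseudouridine formation in ribosomal RNA. Most normal human somatic cells keep TERT silent, whereas most carcinoma lines express it, and inherited defects in many of these genes cause short telomere disorders such as dyskeratosis congenita.

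The labels and the measured genes did not match in every respect, and the groups are therefore called by their labels. STN1 itself had 303, 306 and 275 reads in the shSTN1-labelled libraries, against 387, 346 and 278 reads in the control libraries, and did not pass the test (log2 fold change -0.15, edgeR adjusted p = 0.253). The genotype field of 2 of the shSTN1-labelled libraries names STN2 and STN3, while the titles, which were used for grouping, name STN1. Total counts ran from 18813591 to 23336942 reads in the shSTN1-labelled libraries and from 17357223 to 20660453 in the control libraries. The 10 markers common in pancreatic carcinoma lines, keratins among them, were summed in CPM (read counts scaled to a common library total). The sum ran from 6637 to 6861 under the shSTN1 label and from 1094 to 1178 under the control label. KRT8 alone averaged 3606 CPM under the shSTN1 label, against 606 CPM under the control label. All 8 tested markers were higher under the shSTN1 label. S100P and TFF1 had too few reads to be tested. S100P had 8, 6 and 3 reads under the shSTN1 label, against 0, 0 and 6 under the control label. TFF1 had 1, 0 and 4 reads, against 0, 0 and 1. Of 10 markers of embryonic kidney lines, chosen with earlier results of these data known, SALL1, EYA4, HMX1 and CDKN2A were at 0 reads in the shSTN1-labelled libraries and none was at 0 in control. That list summed to 70.5 to 73.1 CPM in the shSTN1-labelled libraries, and to 1208 to 1241 CPM in the control libraries. The list did not move as 1, since 9 of its genes were lower while PAX2 was higher, at 62.4 CPM in the shSTN1-labelled libraries, against 24.2 CPM in control (log2 fold change 1.37, edgeR adjusted p = 1.02e-15). Fibroblast markers (6 genes, DCN at 0 in the shSTN1-labelled libraries) summed to 147 to 162 CPM and to 64.6 to 78.4 CPM in control. Most of each sum was COL1A1, at 124 CPM in the shSTN1-labelled libraries, against 46.7 CPM in control. Of the 3 tested genes of this list, COL1A1 and COL3A1 were higher and PDGFRB did not pass. COL1A2, LUM and DCN had too few reads to be tested. LUM went the other way, with 1, 1 and 0 reads under the shSTN1 label, against 11, 12 and 7 under the control label. Leukocyte markers (5 genes) and endothelial markers (4 genes) summed to at most 2.78 CPM in any library, with CD3E and PECAM1 at 0 in both groups and PTPRC at 0 in control. All 10 telomerase genes were measured in these same libraries, so a difference in the cells and a difference caused by the hairpin cannot be told apart in any value below.

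The upstream sequence of 4 of the genes is shown because these genes, the catalytic subunit and 3 of the proteins that hold TERC, gave the contrasting results that follow. Each window runs from 250 bases before to 50 bases after the gene's start, 5′ to 3′ on the gene's strand, taken from RefSeq on GRCh38.p14. Capitals mark 3 short motifs on either strand, the E-box CACGTG bound by MYC and MAX, the GC box GGGCGG (or CCGCCC) bound by SP1, and the ETS core CCGGAAG (or CTTCCGG).
TERT, minus strand, chr5:1295019-1295318: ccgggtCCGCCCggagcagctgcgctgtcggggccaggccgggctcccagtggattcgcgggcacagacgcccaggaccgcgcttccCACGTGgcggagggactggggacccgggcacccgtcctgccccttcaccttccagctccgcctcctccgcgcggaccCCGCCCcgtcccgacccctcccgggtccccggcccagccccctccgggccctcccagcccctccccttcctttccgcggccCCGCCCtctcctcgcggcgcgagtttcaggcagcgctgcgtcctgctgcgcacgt
DKC1, plus strand, chrX:154762614-154762913: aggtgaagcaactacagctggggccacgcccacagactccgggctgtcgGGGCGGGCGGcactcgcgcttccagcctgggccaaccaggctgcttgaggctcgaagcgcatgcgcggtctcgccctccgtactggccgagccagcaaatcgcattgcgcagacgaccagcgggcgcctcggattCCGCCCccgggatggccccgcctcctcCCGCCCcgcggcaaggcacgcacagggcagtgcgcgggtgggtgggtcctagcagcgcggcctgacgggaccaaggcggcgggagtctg
NOP10, minus strand, chr15:34343087-34343386: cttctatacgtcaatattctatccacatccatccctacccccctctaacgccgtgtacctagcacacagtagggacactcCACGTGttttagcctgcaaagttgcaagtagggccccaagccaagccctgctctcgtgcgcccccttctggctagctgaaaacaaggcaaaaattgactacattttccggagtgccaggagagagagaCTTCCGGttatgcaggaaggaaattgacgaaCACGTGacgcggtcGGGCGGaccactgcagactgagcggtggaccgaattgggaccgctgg
NHP2, minus strand, chr5:178153836-178154135: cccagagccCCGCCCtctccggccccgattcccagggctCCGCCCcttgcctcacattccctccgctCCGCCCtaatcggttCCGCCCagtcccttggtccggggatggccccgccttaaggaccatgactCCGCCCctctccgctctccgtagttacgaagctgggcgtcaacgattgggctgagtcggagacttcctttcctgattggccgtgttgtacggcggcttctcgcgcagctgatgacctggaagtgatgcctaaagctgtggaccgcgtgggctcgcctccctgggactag

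The TERT window held 1 whole E-box and 3 GC boxes, and the NOP10 window held 2 E-boxes, 1 GC box and 1 ETS core. The TERT window ends with the letters CACGT, and an E-box that runs past the edge of a window was not counted. The DKC1 window had 4 GC boxes, the first pair sharing letters, and the NHP2 window had 5 GC boxes, both windows without the other motifs. RefSeq windows were matched for 9 of the 10 genes, 16 windows in all. Each of the 9 genes had a GC box in 1 of its windows, so that 9 of the 16 windows held one, with an E-box in 4 and an ETS core in 4, while among all 35116 RefSeq windows 45.0% held a GC box, 7.26% an E-box and 10.3% an ETS core. These are letter matches and not measured binding sites.

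Most of the telomerase genes differed between the groups, in both directions and by modest amounts. Of the 10 genes, 8 passed the edgeR quasi-likelihood test at an adjusted p of 0.05, 3 of them higher (NOP10, PARN and TERT) and 5 lower (NHP2, NAF1, GAR1, SMG6 and WRAP53) in the shSTN1-labelled libraries. Over all 17451 genes tested, 74.1% passed, 35.6% higher and 38.5% lower, so the share of telomerase genes that passed is close to the background. The groups of libraries did not overlap for 8 of the 10 genes, 2 higher and 6 lower, beside 75.6% of all genes (36.6% higher and 39.0% lower). None of the 10 reached a 2-fold difference, whereas 34.6% of all genes tested passed with at least 2-fold. The median log2 fold change was -0.44 over the 10 genes and -0.03 over all genes tested. In bulk RNA, fewer cells that express a gene and less RNA per cell cannot be told apart.

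**Figure D1:**
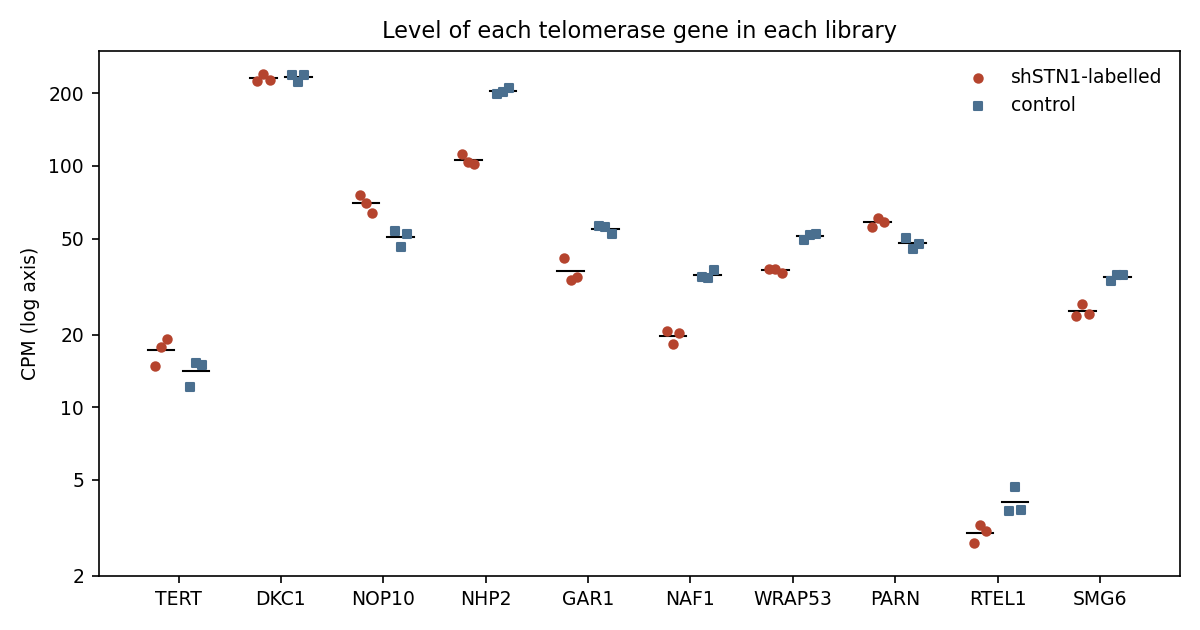
Level of each telomerase gene in CPM on a log axis, with 1 point per library (circles, shSTN1-labelled; squares, control) and a line at the mean of 3 libraries. The NHP2 points lie between 102 and 112 CPM in the shSTN1-labelled libraries and between 199 and 211 CPM in control, and the DKC1 points of the groups lie at the same height.

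TERT, the reverse transcriptase (ENSG00000164362.20, chromosome 5, 1253147 to 1295069 in GRCh38, minus strand), was read in every library. It had 302, 387 and 338 reads in the shSTN1-labelled libraries, or 14.7, 17.7 and 19.2 CPM, against 252, 340 and 276 reads in the control libraries, or 12.1, 15.2 and 15.0 CPM. The groups overlap, because the first shSTN1-labelled replicate lies below the second and the third control replicate. TERT passed narrowly with a log2 fold change of 0.29 (SE 0.15, edgeR adjusted p = 0.0367), at 17.2 ± 2.26 CPM in the shSTN1-labelled libraries, against 14.1 ± 1.71 CPM in control (SD, n = 3 each). This call did not hold when single libraries were left out. It was lost without control replicate 1, where the log2 fold change was 0.18 (edgeR adjusted p = 0.25), without shSTN1 replicate 3 (0.21, edgeR adjusted p = 0.169) and without shSTN1 replicate 2 (0.27, edgeR adjusted p = 0.0866). TERT was also not past the threshold by DESeq2 (adjusted p = 0.0629), with upper-quartile scaling (edgeR adjusted p = 0.0634) or without a low-count filter (edgeR adjusted p = 0.0801).

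The genes whose level followed TERT most closely over the 6 libraries were NEDD4L (a ubiquitin ligase, Pearson r 0.98), ADAT1 (a tRNA adenosine deaminase, 0.98) and ZNF584 (a zinc finger protein, 0.96), out of 11141 protein-coding genes compared on log2 CPM. The 6 points share their libraries and depth, and the values are descriptive. As the highest of 11141 genes on 6 points, r values of this size can arise from the choice alone. None of the 3 passed the test between groups, with log2 fold changes of 0.12, 0.22 and 0.21.

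The RNA subunit TERC was listed at 0 reads in all 6 libraries. At these depths a count of 0 allows up to 3 reads, which is 0.134 to 0.1702 CPM per library and covers counting error only. How the RNA was selected before library preparation is not given in the sources used here, and mature TERC carries no long poly(A) tail, so the 0 is not read as absence of the RNA.

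The 4 proteins of the H/ACA core moved apart from each other. NHP2 was lower, GAR1 was lower, NOP10 was higher, and DKC1 did not pass the test. Dyskerin (DKC1, ENSG00000130826.18, chromosome X, 154762742 to 154777689), the pseudouridine synthase around which the particle is built, had 225, 240 and 227 CPM in the shSTN1-labelled libraries, against 239, 222 and 237 CPM in control. The groups overlap throughout. It had a log2 fold change of -0.01 (SE 0.04, edgeR adjusted p = 0.851), and the limma-voom 95% interval ran from -0.13 to 0.11, that is 91.1% to 108% of control.

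NHP2 (ENSG00000145912.8, chromosome 5, 178149460 to 178153967), an RNA-binding protein that docks onto the complex through NOP10, had 2301, 2262 and 1794 reads in the shSTN1-labelled libraries, against 4138, 4535 and 3895 reads in control. That is 112, 104 and 102 CPM in the shSTN1-labelled libraries, against 199, 203 and 211 CPM in control, or 51.8% of control. Every shSTN1-labelled library lay below every control library. The log2 fold change of -0.95 (SE 0.05, edgeR adjusted p = 1.25e-14) had the largest size among the 10 genes, and 63.3% of all genes tested differed by less than this. In GENCODE 29, 27.4% of the NHP2 exon bases are also exon bases of RMND5B on the other strand, whose log2 fold change was -0.23 (edgeR adjusted p = 0.0101). Whether the counting used strand is not given, so reads there may be lost or shared.

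NOP10 (ENSG00000182117.5, chromosome 15, 34341713 to 34343177), the smallest of the core proteins and the link between dyskerin and NHP2, had 75.6, 70.1 and 64.0 CPM in the shSTN1-labelled libraries, against 53.6, 46.1 and 52.1 CPM in control. The groups did not overlap, with a log2 fold change of 0.47 (SE 0.10, edgeR adjusted p = 6.89e-06). GAR1 (ENSG00000109534.17, chromosome 4, 109815510 to 109824740), which joins last and completes the mature particle, had 41.6, 33.8 and 34.6 CPM in the shSTN1-labelled libraries, against 56.5, 55.7 and 52.1 CPM in control. All 3 shSTN1-labelled libraries were below control, the first of them highest (log2 fold change -0.58, SE 0.10, edgeR adjusted p = 6.97e-07). Neither gene shares exon bases with another gene of the annotation.

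Because the core proteins bind as a unit, their levels were also set against each other per length, as CPM divided by the kilobases of exon. NOP10 made up 47.9%, 47.1% and 45.5% of the summed CPM per kb of the core in the shSTN1-labelled libraries, against 30.9%, 27.9% and 29.8% in control. NHP2 made up 26.1%, 25.5% and 26.6% in the shSTN1-labelled libraries, against 42.1%, 45.1% and 44.3% in control. The order of these mRNAs was thus turned round, with NOP10 first in every shSTN1-labelled library and NHP2 first in every control library. The ratio of NHP2 to NOP10 in CPM per kb averaged 0.557 ± 0.0230 in the shSTN1-labelled libraries and 1.49 ± 0.126 in the control libraries (SD, n = 3 each). DKC1 held 20.4 ± 1.43% in the shSTN1-labelled libraries and 17.9 ± 0.213% in control, and GAR1 held 6.65 ± 0.497% in the shSTN1-labelled libraries and 8.67 ± 0.554% in control. The height of each share depends on the length used. With the longest transcript in place of all exons, NHP2 stood at 122 CPM per kb and NOP10 at 126 in the shSTN1-labelled libraries, against 236 and 91.3 in control, so that the lead of NOP10 in the shSTN1-labelled libraries was then within the spread. These shares are of mRNA and do not measure protein.

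**Figure D2:**
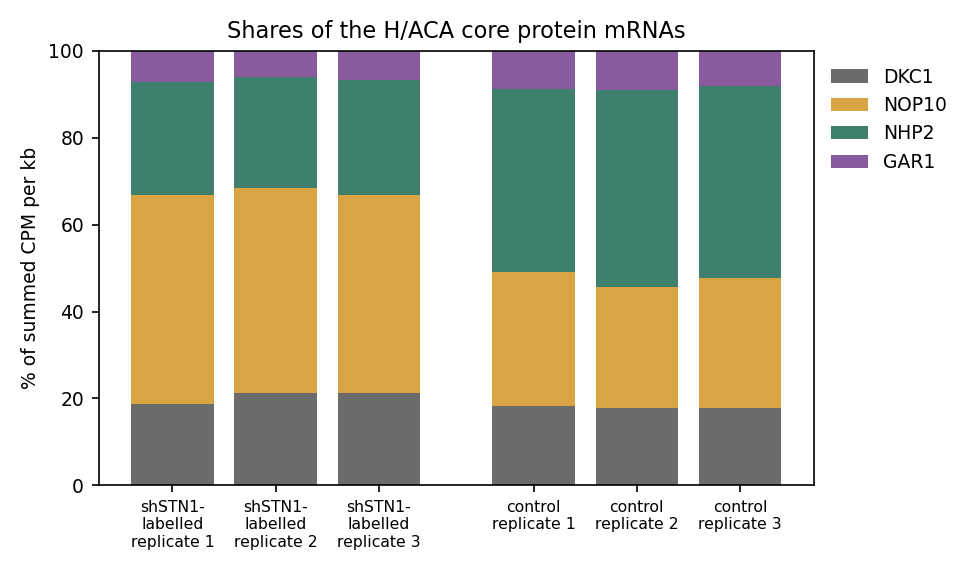
Share of DKC1, NOP10, NHP2 and GAR1 in their summed CPM per kb of exon, in percent, with 1 bar per library and the shSTN1-labelled libraries at left. NOP10 takes 45.5% to 47.9% of each shSTN1-labelled bar and 27.9% to 30.9% of each control bar.

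Both assembly factors were lower in the shSTN1-labelled libraries. NAF1 (ENSG00000145414.9, chromosome 4, 163110073 to 163166921) occupies the place of GAR1 while the particle is being built and is then exchanged for it. It had 20.8, 18.3 and 20.2 CPM in the shSTN1-labelled libraries, against 34.7, 34.3 and 37.1 CPM in control. The groups lie far apart relative to their spread, and NAF1 stood at 55.9% of control (log2 fold change -0.84, SE 0.06, edgeR adjusted p = 2.50e-09). The ratio of NAF1 to GAR1 in CPM per kb was 0.212, 0.231 and 0.248 in the shSTN1-labelled libraries and 0.261, 0.262 and 0.303 in control. Every shSTN1-labelled library thus had a lower ratio than every control library, by a narrow margin, and the ratio was not tested.

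WRAP53 (ENSG00000141499.16, chromosome 17, 7686071 to 7703502), also called TCAB1, binds a short signal in TERC and brings telomerase to Cajal bodies and telomeres. Its level was 37.4, 37.3 and 36.0 CPM in the shSTN1-labelled libraries, against 49.2, 51.6 and 52.1 CPM in control. The 3 libraries of each group were close together and the groups were separate (log2 fold change -0.47, SE 0.03, edgeR adjusted p = 7.53e-06).

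PARN, which trims the 3′ end of TERC, was among the genes raised. PARN (ENSG00000140694.17, chromosome 16, 14435701 to 14632728) is a poly(A)-specific ribonuclease that removes short adenosine tails from TERC and so protects it from decay. It had 55.6, 61.1 and 58.6 CPM in the shSTN1-labelled libraries, against 50.2, 45.2 and 47.7 CPM in control. The groups did not overlap. PARN had a log2 fold change of 0.29 (SE 0.06, edgeR adjusted p = 0.00165), which was not past a test against a fold of 1.2 (glmTreat adjusted p = 0.219).

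RTEL1 and SMG6 act at telomeres without being part of the RNA-protein core. SMG6 (ENSG00000070366.14, chromosome 17, 2059839 to 2303771), the endonuclease of nonsense-mediated decay and a human relative of the yeast telomerase subunit Est1, had 23.8, 26.7 and 24.3 CPM in the shSTN1-labelled libraries, against 33.2, 35.3 and 35.3 CPM in control. It was lower in all 3 libraries (log2 fold change -0.47, SE 0.06, edgeR adjusted p = 3.67e-05). Of its exon bases, 22.9% are also exon bases of HIC1 on the opposite strand, which had 23, 42 and 21 reads in the shSTN1-labelled libraries, against 87, 90 and 99 in control, and a log2 fold change of -1.66 (edgeR adjusted p = 3.55e-07).

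RTEL1 (ENSG00000258366.8, chromosome 20, 63657810 to 63696253), a helicase that unwinds telomere loops, had the fewest reads of the 10 genes, with 56, 71 and 54 reads in the shSTN1-labelled libraries, against 77, 104 and 69 reads in control. In CPM the groups did not overlap, at 2.73, 3.25 and 3.06 CPM in the shSTN1-labelled libraries, against 3.71, 4.65 and 3.74 CPM in control. The test was not passed (log2 fold change -0.42, SE 0.13, edgeR adjusted p = 0.0605, limma-voom 95% interval 55.9% to 100.3% of control). As much as 70.2% of the RTEL1 exon bases belong also to the readthrough gene RTEL1-TNFRSF6B on the same strand, so its count rests on part of the gene. With the readthrough row added, RTEL1 had 144, 155 and 123 reads in the shSTN1-labelled libraries, against 147, 188 and 164 reads in control, and the log2 fold change was -0.20 (edgeR adjusted p = 0.212). On that sum, added after seeing the data, the groups overlap narrowly, at 6.98 to 7.10 CPM in the shSTN1-labelled libraries, against 7.07 to 8.89 CPM in control.

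**Figure D3:**
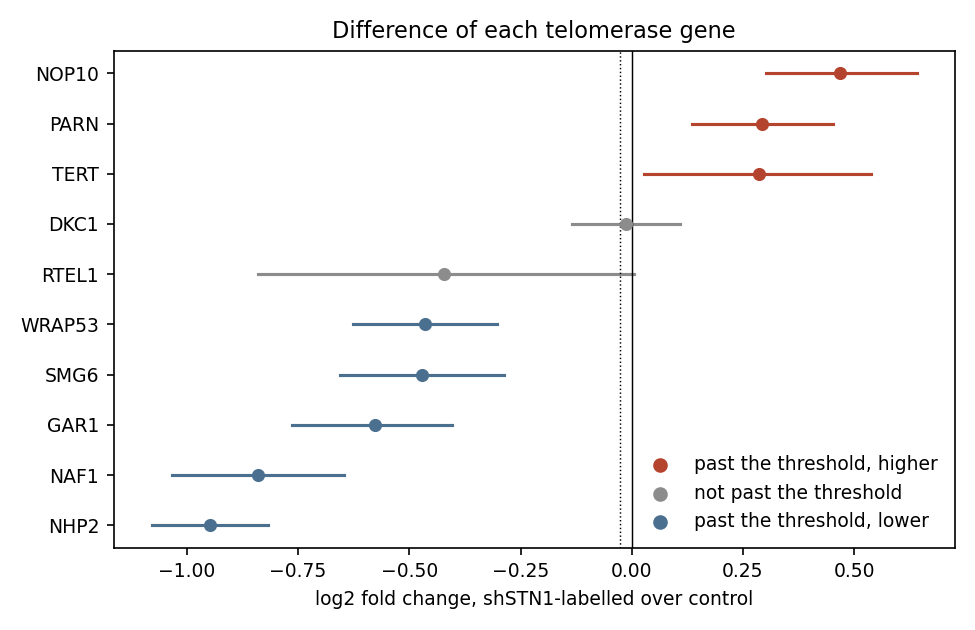
Log2 fold change of each telomerase gene (point, edgeR) with the limma-voom 95% interval (line), as shSTN1-labelled over control, sorted by value. The solid line marks no difference and the dotted line the median of all genes tested, -0.03; NHP2 at -0.95 and NOP10 at 0.47 are the ends of the range.

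Ordered by level per length, the 10 genes spanned a wide range. In the shSTN1-labelled libraries the order in mean CPM per kb of exon was NOP10 (126), NHP2 (70.2), DKC1 (54.9), GAR1 (17.9), PARN (13.3), WRAP53 (7.26), NAF1 (4.11), TERT (3.74), SMG6 (2.36) and RTEL1 (0.469). In the control libraries it was NHP2 (135), NOP10 (91.3), DKC1 (55.4), GAR1 (26.8), PARN (10.9), WRAP53 (10.0), NAF1 (7.35), SMG6 (3.28), TERT (3.06) and RTEL1 (0.626). The core proteins were thus the most abundant mRNAs of the set in both groups. Some neighbours in the order did not differ beyond their spread. TERT and NAF1 in the shSTN1-labelled libraries were at 3.74 ± 0.491 and 4.11 ± 0.265 CPM per kb, and TERT and SMG6 in control were at 3.06 ± 0.372 and 3.28 ± 0.115 CPM per kb. With the longest transcript as the length, NAF1 (15.2 CPM per kb) came before WRAP53 (12.7) in control. The low end of the range depends on the length used, because RTEL1 shares most of its exon bases. Over exon bases not shared with another gene, RTEL1 stood at 1.57 CPM per kb in the shSTN1-labelled libraries and 2.10 in control. It was still last, and the order of the genes did not change.

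Replicates scattered to different degrees. The coefficient of variation of TERT was 13.1% in the shSTN1-labelled libraries and 12.1% in control, where counting error alone would give about 5.40% in the shSTN1-labelled libraries and 5.88% in control. WRAP53 varied by 2.07% in the shSTN1-labelled libraries and 3.03% in control, no more than counting error, which is 3.68% in the shSTN1-labelled libraries and 3.09% in control. For RTEL1 the variation of 8.69% in the shSTN1-labelled libraries and 13.3% in control was near its counting error, 12.9% in the shSTN1-labelled libraries and 10.95% in control.

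Of the 17 chaperone genes that help to build the enzyme, 11 were lower and 2 higher in the shSTN1-labelled libraries (median log2 fold change -0.42). The 76.5% of them that passed lies close to the 74.1% of all genes tested (35.6% higher and 38.5% lower), and in this and the other pathway lists the share that passed ran from 62.5% to 85.7%. SHQ1, the chaperone that holds dyskerin before assembly, stood at 17.6 ± 3.00 CPM in the shSTN1-labelled libraries, against 38.4 ± 1.00 CPM in control (log2 fold change -1.13, edgeR adjusted p = 3.18e-11). NVL, an AAA ATPase that binds TERT, fell by 1.60 on the log2 scale, HSP90AA1 by 1.14 and the chaperonin subunit CCT3 by 0.84. The chaperonin TRiC folds WRAP53, and of its 8 genes TCP1, CCT3, CCT4, CCT7 and CCT8 were lower, CCT6A was higher, and CCT2 and CCT5 did not pass. RUVBL1 and PTGES3 did not pass either, with log2 fold changes of 0.06 and -0.08. SHQ1 and the single chaperonin genes other than CCT3 were picked out with their values known.

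Genes that process or degrade TERC also differed in both directions, with 9 of 14 tested genes lower and 3 higher (median -0.40). That is 85.7% past the threshold, beside 74.1% of all genes tested. DIS3, an exosome nuclease, stood at 24.2 ± 3.44 CPM in the shSTN1-labelled libraries, against 109 ± 12.0 CPM in control (log2 fold change -2.17, edgeR adjusted p = 7.84e-20). NCBP2, of the cap-binding complex, was higher (1.00) and the exosome helicase gene MTREX lower (-0.81). TENT4B, which adds the adenosines that PARN removes, was lower (-0.88, edgeR adjusted p = 1.42e-07), and its relative TENT4A higher (0.40, edgeR adjusted p = 3.27e-05), both picked out with their values known. TOE1, another nuclease that trims TERC, and TGS1, which methylates its cap, did not pass, at -0.02 and -0.18.

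Among 10 other genes of telomerase recruitment or regulation, 7 were lower and 1 higher (median -0.44), or 80.0% past the threshold beside 74.1% of all genes tested. HNRNPA1 (-1.06) and the nucleolar GTPase gene GNL3 (-1.05) fell, and TEP1, a protein that binds TERC, rose to 43.7 ± 0.0709 CPM in the shSTN1-labelled libraries, against 19.8 ± 3.23 CPM in control (log2 fold change 1.14, edgeR adjusted p = 9.75e-12). COIL, the scaffold protein of Cajal bodies, and HNRNPC did not pass (-0.14 and -0.02).

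Transcription factors known to act at the TERT promoter were split, with 5 of 17 higher and 8 lower (median -0.03). That is 76.5% past the threshold, close to the 74.1% of all genes tested. ETS2 (2.51) and ETS1 (2.66) rose, and MYC, which activates TERT through its E-boxes, fell to 112 ± 4.01 CPM in the shSTN1-labelled libraries, against 280 ± 3.70 CPM in control. MYC had an edgeR adjusted p of 8.21e-19. E2F1 and KLF4 did not pass, both at 0.06. These 3 changed factors were named for their smallest adjusted p, so their differences are large by choice. TERT itself differed by 0.29 on the same scale. USF2 (0.20), SP1 (-0.21), MEN1 (-0.23) and GABPB1 (-0.28) also passed, with smaller differences than TERT. MXI1 (-1.23), GABPA (-0.91), MAX (-0.87), MXD1 (0.79), CTCF (-0.48) and SP3 (0.45) passed with larger ones. The factors that passed, other than ETS1, ETS2 and MYC, were picked out with their values known.

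The box C/D particle, the other class of small nucleolar RNA-protein complexes, served as a comparison for the H/ACA core. Of its 7 proteins and assembly factors, 2 were higher and 4 lower (median -0.38), or 85.7% past the threshold beside 74.1% of all genes tested. The methyltransferase gene FBL rose (1.86, edgeR adjusted p = 3.08e-22), and NUFIP1 (-0.92) and SNU13 (-0.63) fell. ZNHIT6 did not pass (0.04). Rows named SNORA, the H/ACA RNAs, summed to 20.7, 21.4 and 24.6 CPM in the shSTN1-labelled libraries, against 17.6, 21.3 and 19.7 CPM in control, with 121 of 212 rows without a read. Rows named SNORD, the box C/D RNAs, summed to 20.2, 19.8 and 21.4 CPM in the shSTN1-labelled libraries, against 33.6, 24.6 and 22.8 CPM in control. Of the 312 SNORD rows, 230 had no read. The sums overlap between groups for SNORA. For SNORD they do not, by a narrow margin (21.4 against 22.8 CPM), beside 75.6% of all genes tested without overlap. The rows lie mostly inside host genes, and short RNAs are poorly kept by libraries of this kind, so the part of host gene reads in these sums was not tested.

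Partners of SMG6, PARN and RTEL1 were counted in the same way. The share past the threshold was 77.8% for nonsense-mediated decay, 80% for deadenylases, 62.5% for helicases, 83.3% for shelterin and 66.7% for CST. Over all genes tested it was 74.1% (35.6% higher and 38.5% lower). Of 9 other nonsense-mediated decay genes, 5 were lower and 2 higher (median -0.21), among them UPF3B (-0.81), UPF2 (-0.80) and UPF3A (0.78), while UPF1 (-0.04) and SMG9 (0.10) did not pass. Of 10 genes of other deadenylases and their complexes, 8 were lower and 0 higher (median -0.53). CNOT1 was at -1.45, CNOT6L at -0.98 and PDE12 at -0.89, while PAN2 (0.17) and NOCT (-0.02) did not pass. With protein-coding genes alone, 1 gene of this list was higher. PARN, which was higher, thus differed in direction from the genes of this list that passed with all genes in the fit. Of 8 other helicases that work on telomeres or G-quadruplex DNA, 4 were lower and 1 higher (median -0.46). PIF1, a helicase known in yeast to remove telomerase from DNA, stood at 55.6 ± 0.872 CPM in the shSTN1-labelled libraries, against 18.9 ± 0.474 CPM in control (log2 fold change 1.56, edgeR adjusted p = 1.00e-16). WRN (-1.53) and FANCM (-1.26) fell, and RECQL4 (0.06) and DDX11 (-0.09) did not pass. Shelterin had 4 of 6 genes lower and 1 higher, and CST with its polymerase partner 2 of 6 tested genes higher and 2 lower.

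**Figure D4:**
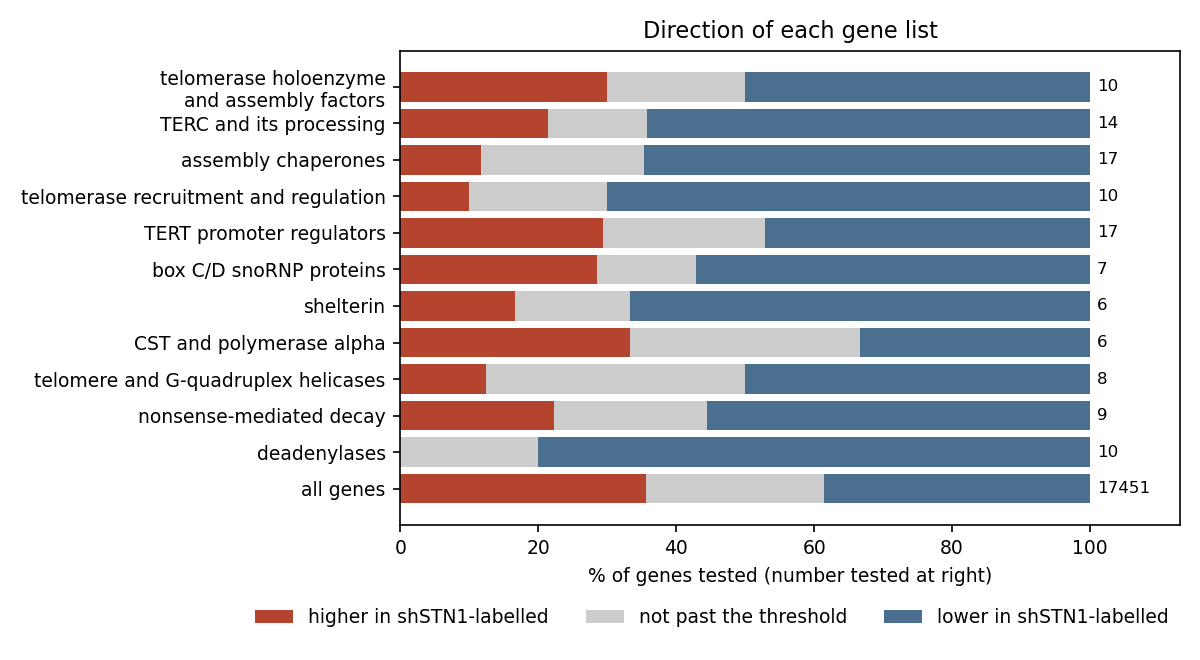
Share of the tested genes of each list, in percent, that were higher in the shSTN1-labelled libraries, did not pass the threshold or were lower, with the number tested at right. Of the 10 telomerase genes, 3 were higher and 5 lower; the bottom bar gives all 17451 genes, 35.6% higher and 38.5% lower.

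The surroundings of each gene were examined as tested protein-coding genes whose annotated start lies within 1 Mb. Their counts stand beside 74.1% of all genes tested, of any type, that passed, 35.6% higher and 38.5% lower. NOP10 lay at 0.47, close to the median of 0.49 of its 12 neighbours, of which 7 were higher and 1 lower. PARN, at 0.29, lay among 11 neighbours of which 8 were higher and 2 lower (median 0.95). All 8 neighbours of GAR1 had negative values, 6 of them past the threshold (median -2.69), while GAR1 was at -0.58. This median depends on the distance taken, and was -0.88 within 0.5 Mb and -1.32 within 2 Mb. SMG6 (-0.47) had 16 of 25 neighbours lower and 7 higher (median -0.36).

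The medians of the neighbours lay above the gene by 0.92 on the log2 scale for RTEL1, 0.91 for NHP2, 0.89 for NAF1, 0.66 for PARN, 0.34 for DKC1 and 0.33 for WRAP53. Among all genes tested, 35.6% were higher and 38.5% lower. RTEL1 was at -0.42 where 22 of 41 neighbours were higher and 7 lower (median 0.50). NHP2 was at -0.95 where the median of 27 neighbours was -0.04, with 7 higher and 10 lower. DKC1 was at -0.01 where 24 of 41 neighbours were higher and 10 lower (median 0.33). TERT, at 0.29, had 8 of 17 neighbours higher and 5 lower (median 0.15). WRAP53 had 20 of 66 higher and 24 lower (median -0.14), and NAF1, at -0.84, had 3 tested neighbours, 1 of them lower (median 0.05). The part of DNA copy number in these values was not tested.

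**Figure D5:**
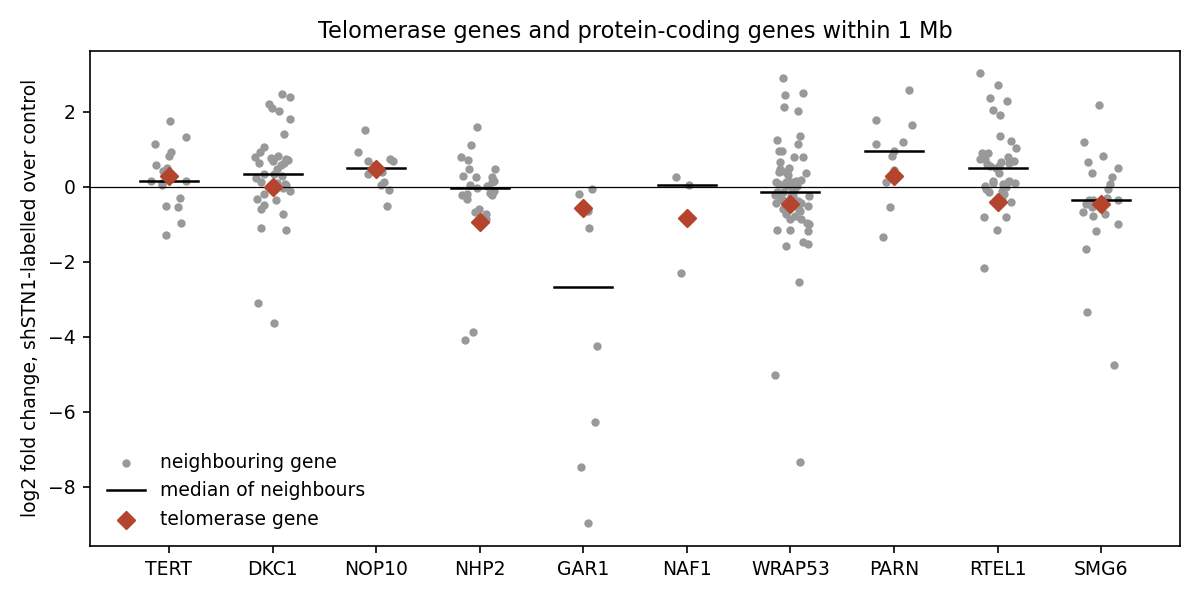
Log2 fold change (shSTN1-labelled over control) of each telomerase gene (diamond) and of the tested protein-coding genes within 1 Mb of it (points), with the median of the neighbours as a line. All 8 neighbours of GAR1 lie below 0, and RTEL1 at -0.42 lies below the median of 0.50 of its 41 neighbours.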

How the data were processed

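The values are raw counts, whole numbers of reads for each gene, as deposited by the authors. The submitters' processing notes name STAR 2.7.2b, featureCounts 2.0.1, cutadapt and FastQC with GRCh38, and the labels' protocols name Trizol extraction and a NEBNext Ultra kit. Which annotation release and strand setting were used is not given. Of 60668 rows, 45 second copies of pseudoautosomal genes were left out. Coordinates and exon lengths came from GENCODE 29, where 58516 rows were found. edgeR 4.0.16 (R 4.3.3) with filterByExpr, TMM scaling and its quasi-likelihood test (robust) compared shSTN1 with control over all 6 libraries, with p-values adjusted by Benjamini and Hochberg over 17451 genes. CPM uses TMM-scaled library sizes, and SEs are those of the difference of group means of log2 CPM (prior count 2). Intervals came from limma-voom (limma 3.58.1). Alternatives were other scalings and filters, DESeq2 1.42.0, limma-voom, a replicate block, stricter thresholds and leaving out each library. No pair of replicates was as alike as 1 library counted again would be (chi-square over its degrees of freedom 2.88 to 8.06). The members and gene lists were chosen with earlier results of these data known. Named genes were the 10 members, STN1, TERC, genes sharing exon bases with a member (not all are reported here), those most like TERT, and from each list up to 3 genes with the smallest adjusted p and up to 2 that did not pass. Shelterin and CST are given as counts. Other genes named from a pathway list are marked as picked out with their values known. Where a symbol had several rows, as for PINX1, the protein-coding row was used. Figures used matplotlib 3.10.9 in Python 3.11.15.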

Additional observations from a re-analysis of the deposited data

How the results depend on the processing

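The 5 lower members stayed past the threshold in every alternative run, and upper-quartile scaling added RTEL1 (log2 fold change -0.46). The 3 higher members fell to 1 against a fold of 1.2 (glmTreat), where TERT and PARN, each at 0.29 in the same fit, lost their calls (adjusted p = 0.272 and 0.219), and leaving out 1 library gave 2 to 3 higher and 5 lower. TERT was not past the threshold with upper-quartile scaling (0.25), no low-count filter (0.26), DESeq2 (0.28) and an adjusted p under 0.01 (0.29), and ran from 0.18 to 0.39 over left-out libraries. DKC1, far from the threshold, turned sign with protein-coding genes alone (0.0065) and ran from -0.058 to 0.0091 over left-out libraries. The cause was not tested. Genes past the threshold over the whole table numbered 10763 to 13901, and 12586 to 12857 over left-out libraries. The replicate block gave 12742 genes, 3 members higher and 5 lower; same-numbered libraries, whose deviations had correlations of -0.0123, 0.0171 and -0.0337, are not paired, and the block changed no call of a member. RTEL1 summed with its readthrough row was an alternative chosen after seeing the data, as were lengths without shared exon bases. Of 340 list counts recomputed, 335 stayed within 1.5 times, and with protein-coding genes alone 1 deadenylase gene was higher. Over 0.5 Mb and 2 Mb, 9 of 20 neighbour medians moved by 0.1 or more; that of GAR1 became -0.88 and -1.32, that of WRAP53 turned to 0.0083 at 0.5 Mb and that of NAF1 to -0.63 at 2 Mb. Depth limits RTEL1 most, at 54 to 104 reads per library.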
